A study of Mus musculus with 12 samples.

Results

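The lung of the mouse was followed across birth by setting all embryonic libraries against all postnatal ones. The 6 libraries titled E15.5 or E18.5, 3 of each, were compared with the 6 titled P5 or P8, 3 of each, and these are all 12 libraries of the series. The animals were wild-type C57BL/6 mice of both sexes, no group was treated, and RNA came from whole lungs. Per the study's methods, each time-point was 1 litter, so the 12 libraries stand for 4 litters. A p-value over libraries therefore measures the spread between these libraries, and litter and time-point cannot be told apart. A comparison of litters alone could not go below an exact two-sided permutation p of 0.33. The sides differ by birth and also by the days that lie between E18.5 and P5, which cannot be told apart either.

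Before birth the lung is a fluid-filled organ whose epithelium branches and then widens into sacs. After birth it exchanges gas, clears its fluid, meets inhaled microbes and divides its sacs into alveoli. The flat alveolar type 1 (AT1) cells and the capillary endothelium form the thin wall across which gas moves. Alveolar type 2 (AT2) cells make surfactant, the film of lipid and protein that lowers surface tension. Alternative splicing lets a gene give several transcripts by including or skipping exons, retaining introns or moving a splice site.

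Expression was read from HTSeq read counts for 16152 genes and from counts scaled to the mapped reads of each library (CPM). Splicing was read as the percent spliced-in (PSI), the share of the reads of a locus that include an exon, intron or splice site. Counted reads ranged from 41337443 to 53901957 per library, and the 10 most abundant genes took 3.28% to 3.88% of them in the embryonic and 5.23% to 6.50% in the postnatal libraries. The values of a side are given as the median over its 6 libraries with the lowest and the highest in brackets. A gene or event separated the sides without overlap when every postnatal library lay above, or every one below, all 6 embryonic libraries. In whole lungs, fewer cells of a type and less RNA per cell cannot be told apart.

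Some libraries stood apart in genes known from other organs. Where these transcripts came from was not tested, and lung T cells also express some of the thymus and T cell genes. The summed level of 12 thymus and T cell genes was 46.9 CPM in E15.5 replicate 2, 205.5 CPM in P8 replicate 1 and 395.0 CPM in P8 replicate 2, against 0.498 to 20.7 CPM in the other 9 libraries. Heart muscle genes summed to 972.5 and 1225 CPM in E15.5 replicates 1 and 2 and to 51.3 to 327.3 CPM elsewhere. Skeletal muscle genes reached 170.5, 548.5 and 145.4 CPM in P5 replicate 3 and P8 replicates 1 and 2, and liver genes 108.9 CPM in P8 replicate 2. *Xist*, the RNA that silences an X chromosome in females, was above 100 CPM in 3 of 6 libraries on each side. The counts of genes and events were also computed without these libraries. Without the 3 with thymus genes, 3007 genes were called higher and 1644 lower, and without the 5 with genes of thymus, heart or skeletal muscle, 3038 and 1625. Beside the 3060 and 1613 genes of all libraries, reported next, these counts moved little.

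Gene expression separated the sides broadly. edgeR's quasi-likelihood test of 6 against 6 libraries was run over 15994 genes, and genes were called at an absolute log2 fold change above 1 and an FDR under 0.05. By this rule 3060 genes (19.1% of those tested) were higher and 1613 (10.1%) were lower postnatally. A gene was tested at 1 CPM or more in at least 3 libraries, so one well under 1 CPM on a whole side passed only through the other. For such a gene the direction of a call was nearly fixed in advance. Whatever the size of the change, the CPM values of 4261 genes (26.6%) were higher and those of 5197 (32.5%) lower in all postnatal libraries than in any embryonic one. These counts depend on the scaling. With CPM over the TMM library sizes that the edgeR test uses, 4675 genes were higher and 4755 lower without overlap. The shares of 26.6% and 32.5% given below are those of the plain CPM. Both criteria, the cutoffs and no overlap in plain CPM, were met by 2758 higher and 1517 lower genes, called separating genes here. Their median log2 fold changes were 2.14 and -1.38, beside -0.01 over all genes tested. The 1503 higher and 3680 lower genes that did not overlap but missed the cutoffs had median changes of 0.67 and 0.57 in size on the log2 scale. A further 302 higher and 96 lower genes passed the cutoffs in spite of an overlap. The gap is the distance between the nearest libraries of the sides on log2(CPM + 1), and it was above 1 for 1084 higher and 443 lower separating genes and above 4 for 31 and 2.

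The genes with the widest gap upward included products of the airway and alveolar surface. *Scgb1a1* (chr19:9083636-9087958, minus strand of mm10), the secretory protein of airway club cells, went from 12.3 CPM (11.3–14.5) to 4425 CPM (3241–6029), a log2 fold change of 8.57 with an SE of 0.19 (FDR = 3.89e-12 by edgeR). The surfactant protein gene *Sftpd* went from 1.23 CPM (0.629–2.32) to 401 CPM (362–501), a log2 fold change of 8.38 with an SE of 0.31 (FDR = 1.15e-10 by edgeR). No library of either side came near the other in these genes. *Sftpa1*, another soluble surfactant protein, went from 14.6 CPM (9.02–36.3) to 1292 CPM (1116–1658). *Slc34a2*, the phosphate transporter of AT2 cells, went from 7.38 CPM (2.71–27.1) to 1312 CPM (1119.8–1460.0). In both, the E18.5 libraries were the highest of the embryonic side, and gaps of 4.90 and 5.32 log2 units remained. *Chil1*, a chitinase-like protein, went from 1.30 CPM (0.649–2.48) to 393 CPM (268–472). *Lyz1*, a lysozyme, went from 1.91 CPM (0.963–3.84) to 567 CPM (470.4–796), and its reads can be divided wrongly with its near-identical neighbour *Lyz2*.

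**Figure D1:**
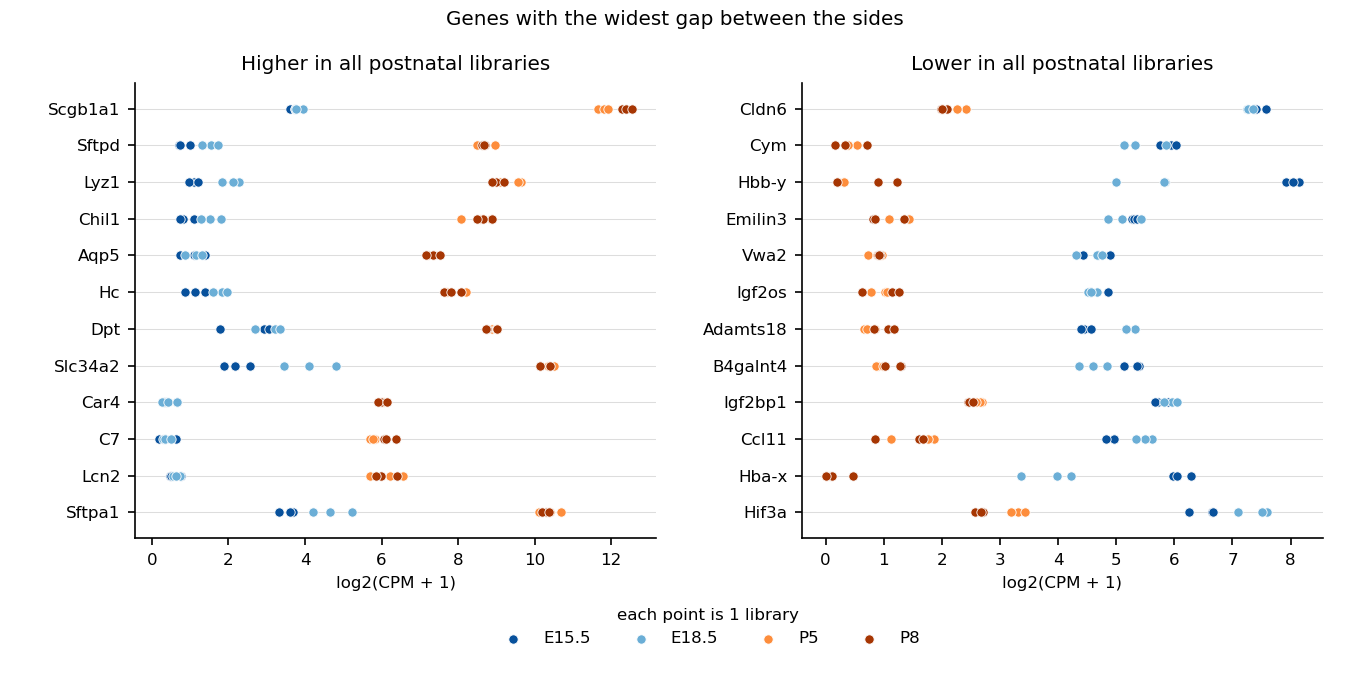
Expression of the 12 genes with the widest gap in each direction, as log2(CPM + 1) on the x axis, with 1 point per library coloured by time-point. In every row the 6 embryonic (blue) and the 6 postnatal (orange and brown) points stand apart. Several rows, among them *Hbb-y*, *Hba-x* and *Slc34a2*, also differ between the embryonic days.

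Genes of other roles were also among the widest gaps upward. The complement component *Hc* went from 1.82 CPM (0.806–2.89) to 217 CPM (198–292) and *C7*, another complement component, from 0.272 CPM (0.129–0.551) to 60.6 CPM (51.3–81.9). *Lcn2*, an iron-sequestering protein of neutrophils and airway epithelium, rose from 0.511 CPM (0.393–0.694) to 68.0 CPM (51.0–92.7). These genes were far above their embryonic values in every postnatal library. *C7* and *Lcn2* were under 1 CPM in every embryonic library, so for them a call upward was nearly fixed in advance. *Dpt*, which encodes the matrix protein dermatopontin, rose from 6.99 CPM (2.42–9.11) to 489 CPM (424–517), a log2 fold change of 6.27 with an SE of 0.27 (FDR = 3.32e-10 by edgeR).

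Downward, the widest gap belonged to *Cldn6* (chr17:23679249-23682446, plus strand), a tight junction claudin of embryonic epithelia, which fell from 164 CPM (152–189) to 3.16 CPM (2.98–4.36), a log2 fold change of -5.52 with an SE of 0.11 (FDR = 1.38e-12 by edgeR). The protease gene *Cym* fell from 54.96 CPM (34.1–64.1) to 0.309 CPM (0.115–0.636). It was under 1 CPM in every postnatal library, so a call downward was nearly fixed in advance. Several of the others encode matrix proteins and their enzymes. *Emilin3* fell from 37.98 CPM (27.9–41.8) to 1.33 CPM (0.768–1.71), *Vwa2* from 24.5 CPM (18.8–28.9) to 0.877 CPM (0.661–0.947), and the metalloprotease gene *Adamts18* from 28.8 CPM (20.1–38.97) to 0.797 CPM (0.578–1.26). *Ccl11*, the eosinophil chemoattractant eotaxin, fell from 34.9 CPM (27.4–48.1) to 2.13 CPM (0.805–2.64). *Hif3a*, a member of the hypoxia-inducible factor family, fell from 118 CPM (75.3–193) to 6.82 CPM (4.97–9.78), and it averaged 91.6 CPM at E15.5 and 169.9 CPM at E18.5. The postnatal fall in *Hif3a* followed a higher level late in gestation. *B4galnt4*, a glycosyltransferase gene, fell from 30.9 CPM (19.5–41.2) to 1.003 CPM (0.826–1.46). *Igf2os*, a transcript antisense to the growth factor gene *Igf2*, fell from 22.7 CPM (21.8–27.9) to 1.06 CPM (0.542–1.39). The counting is not stated to have used strand, so reads of *Igf2os* and *Igf2* cannot be told apart where they overlap.

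The time-points inside each side served as a check on the pooled contrast. Between the embryonic days 487 genes (3.04% of those tested) passed both cutoffs in the fit with a term per time-point, and between the postnatal days 474 (2.96%), of which 460 rose. At an FDR under 0.05 alone the counts were 3441 (21.5%) and 2872 (18%). Among the 2758 higher separating genes, 680 were rising between the embryonic days at that FDR and 96 were falling. Between the postnatal days 435 of them rose further and 100 fell back. Both inner steps went upward in 85, and in 1606 (58.2%) neither passed the FDR. Among the 1517 lower separating genes, 282 fell and 32 rose between the embryonic days, and 127 fell and 153 rose between the postnatal days. Both steps went down in 20, and 1005 (66.2%) passed the FDR in neither. The share of all genes tested that passed in neither was not computed. The 58.2% and 66.2% therefore have no background beside them and do not set the separating genes apart. A log2 fold change under 0.25 in size in both inner steps was found for 488 higher (17.7%) and 508 lower (33.5%) separating genes, and for 43.4% of all genes tested.

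**Figure D2:**
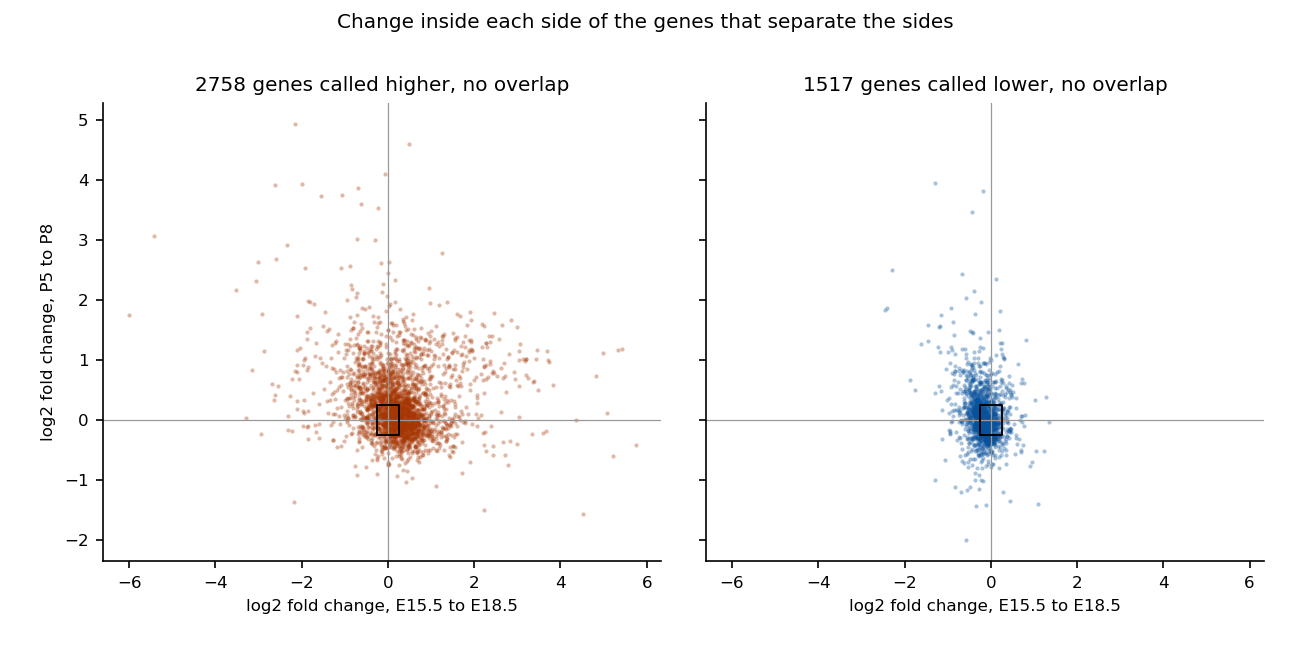
Change inside each side for the separating genes, with the log2 fold change E15.5 to E18.5 on the x axis and P5 to P8 on the y axis and 1 point per gene. The square marks a change under 0.25 in both, which holds 488 of the 2758 higher (left) and 508 of the 1517 lower genes (right).

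The separating genes named next were picked for a wide gap and a log2 fold change under 0.25 in size in both inner steps. Their flat course inside each side is therefore the rule of choice, and their change lay between E18.5 and P5. *Aqp5* (chr15:99590782-99594829, plus strand), the water channel of AT1 cells, went from 1.19 CPM (0.662–1.59) to 162 CPM (142–183), with inner log2 fold changes of 0.09 between the embryonic and 0.02 between the postnatal days. *Car4*, the carbonic anhydrase of the alveolar capillary, went from 0.318 CPM (0.205–0.570) to 64.6 CPM (58.9–69.7), a log2 fold change of 7.52 with an SE of 0.19 (FDR = 9.68e-12 by edgeR). Its inner changes were 0.07 between the embryonic and -0.05 between the postnatal days. *Car4* was under 1 CPM in every embryonic library and passed the filter only through postnatal ones, so its call upward was nearly fixed in advance. Other flat genes that rose were a matrix proteoglycan, a fatty acid transporter and an adenylyl cyclase. *Spock2* was at 7.99 CPM (6.65–11.1) before and 343 CPM (288–418) after birth, *Cd36* at 22.8 CPM (11.8–28.1) before and 559.6 CPM (502–596) after birth and *Adcy8* at 0.794 CPM (0.513–1.32) before and 35.95 CPM (33.5–44.7) after birth. The downward steps included *Igf2bp1* (chr11:95957163-96005940, minus strand), an RNA-binding protein of fetal tissues, which fell from 57.2 CPM (49.7–65.3) to 4.87 CPM (4.49–5.43), a log2 fold change of -3.46 with an SE of 0.09 (FDR = 9.68e-12 by edgeR). *Pdgfc*, a platelet-derived growth factor, fell from 30.6 CPM (24.5–32.4) to 3.87 CPM (3.31–4.26). *Skp2*, a ubiquitin ligase subunit that marks cell cycle inhibitors for degradation, fell from 113 CPM (92.4–120.4) to 16.7 CPM (13.7–20.02). *Rps6ka6*, a ribosomal S6 kinase, fell from 56.5 CPM (50.6–61.2) to 6.61 CPM (5.23–7.47).

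At the edge of the rule, the separating genes with the smallest gap were *Ifitm1*, at 6.28 CPM (5.26–12.5) before and 17.1 CPM (12.7–20.9) after birth, and *Mns1*, at 24.7 CPM (16.95–28.5) before and 9.86 CPM (7.996–16.6) after birth. The call of *Mns1* was lost without E15.5 (log2 fold change -0.91) and without P5 (-0.84). Called genes that only just overlapped were *Unc45b*, at 5.11 CPM (3.94–11.3) before and 14.2 CPM (11.02–17.8) after birth, and *Hoxb6*, at 17.01 CPM (9.61–23.3) before and 7.75 CPM (5.89–9.88) after birth. *Unc45b* lost its call without E18.5 (0.90). *Hoxb6* lost it in several alternatives, with a log2 fold change of -0.59 without E15.5 and -0.99 in the fit with a term per time-point.

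Alveolar epithelial genes rose together. All 12 AT1 markers and 11 of 12 AT2 and surfactant genes were called higher (19.1% of all genes were) and did not overlap. The median log2 fold changes were 2.88 and 4.76, beside -0.01 over all genes. *Ager*, the receptor that marks AT1 membranes, went from 52.7 CPM (38.3–102.03) to 1089 CPM (998–1285), a log2 fold change of 4.21 with an SE of 0.25 (FDR = 4.31e-09 by edgeR). The AT1 genes *Clic5* and *Gprc5a* went from 26.4 CPM (16.3–61.6) to 437 CPM (394–473) and from 42.2 CPM (36.5–59.5) to 375 CPM (338–402). Inside the embryonic side 7 of the 12 AT2 genes and 2 of the 12 AT1 genes rose past both cutoffs, and 0 of either list did inside the postnatal side. The exception among the AT2 genes, *Etv5*, is a transcription factor that also acts in the distal tips. It was lower postnatally without overlap, at 354 CPM (327–408) before and 172 CPM (156–199) after birth, and its log2 fold change of -0.96 missed the cutoff.

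Distal tip progenitors build the branching airway. Of 12 genes of these cells 5 were called lower (10.1% of all genes were) and 0 higher (median -0.66). Without overlap 7 separated, each of them downward (32.5% of all genes did). The transcription factor *Sox9* fell from 51.2 CPM (33.3–59.0) to 5.43 CPM (4.22–6.76) and the ligand *Wnt7b* from 111 CPM (98.6–127) to 19.6 CPM (17.3–21.8). The chromatin protein *Hmga2* fell from 56.6 CPM (43.0–78.04) to 4.81 CPM (2.78–6.11), a log2 fold change of -3.59 with an SE of 0.22 (FDR = 7.99e-09 by edgeR). Other members overlapped. *Fgfr2*, the receptor of the branching signal FGF10, was at 239 CPM (190.3–278) before and 173 CPM (151–195.5) after birth, and *Id2* at 155 CPM (125–168) before and 122.8 CPM (112–128) after birth.

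Airway genes rose as well. The 10 club cell genes were all called higher (19.1% of all genes were), with a median of 5.83. Of the 10, 8 were higher without overlap (26.6% of all genes were). *Cbr2* and *Cyp2f2*, enzymes of club cells, went from 11.7 CPM (8.56–21.5) to 866 CPM (601–1196) and from 6.86 CPM (3.34–10.4) to 291 CPM (148–456). The keratin gene *Krt15* was at 10.02 CPM (7.78–14.3) before and 9.45 CPM (3.85–171) after birth, and its 2 high values were those of the P8 libraries that carried thymus genes. Its log2 fold change of 2.57 turned to -0.40 without the 3 libraries with thymus genes. *Bpifa1*, an antimicrobial protein of the upper airway, overlapped as well, at 0.0391 CPM (0–1.44) before and 8.54 CPM (0.642–46.1) after birth, and lost its call without P8. Of 10 ciliated cell genes 8 were called higher (median 2.98), beside 19.1% of all genes. *Tppp3* went from 18.9 CPM (16.3–22.3) to 206 CPM (156–226) and the axonemal dynein gene *Dnah5* from 0.225 CPM (0.0590–1.53) to 12.9 CPM (6.57–29.0). *Foxj1*, the transcription factor that starts ciliogenesis, was called with an overlap, at 14.4 CPM (7.20–42.0) before and 49.5 CPM (33.1–80.5) after birth. Its log2 fold change was 1.47, and 0.95 without the 3 libraries with thymus genes, where the call was lost. The call was also lost without E15.5 (0.81), without P8 (0.91) and with counts summed per time-point.

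**Figure D3:**
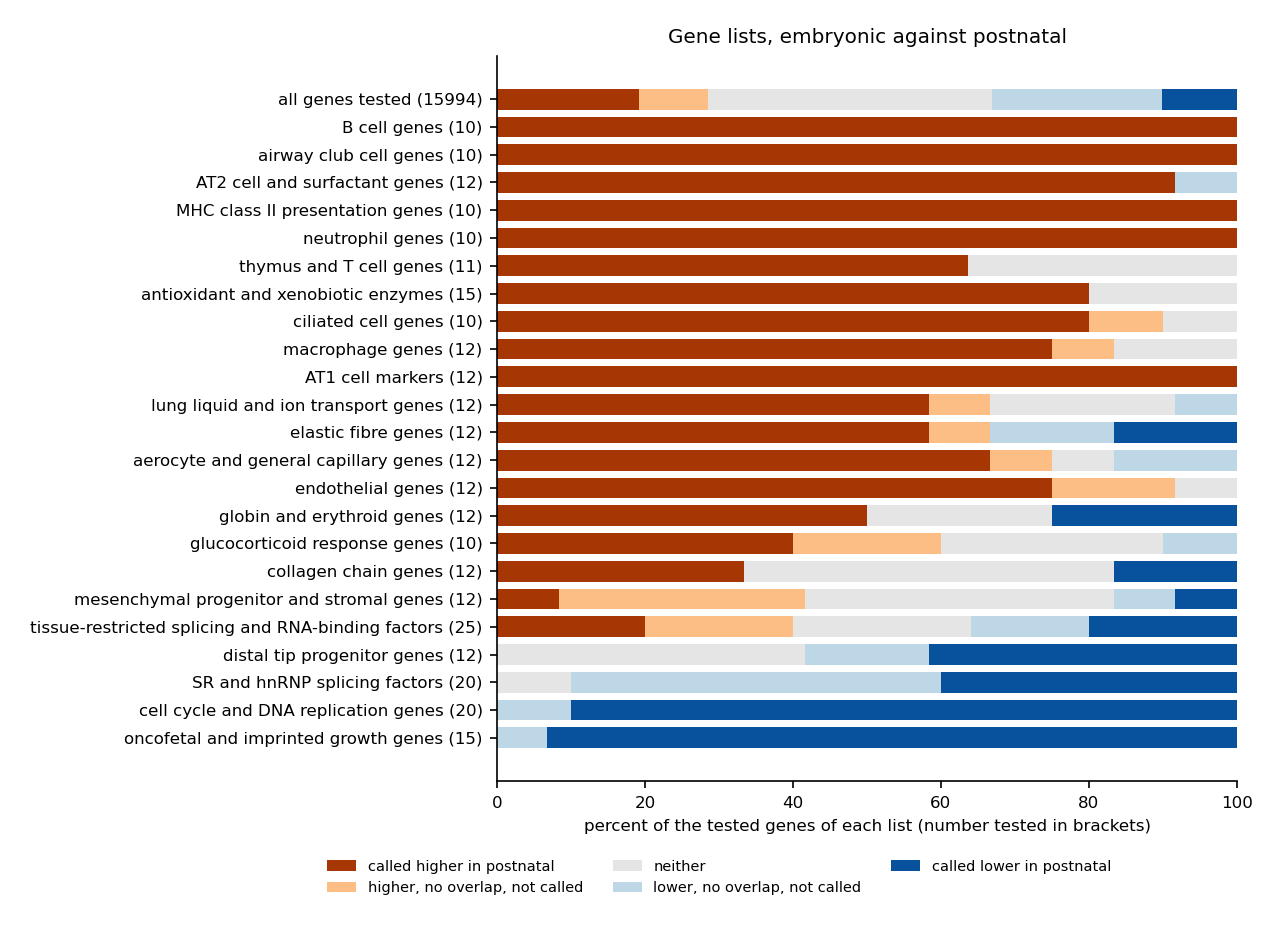
Share of the tested genes of each list (x axis, in percent) that were called higher or lower postnatally, that separated without overlap but missed the cutoffs, or neither, with the number tested in brackets and all genes tested as the top bar. The 12 AT1, 10 B cell, 10 neutrophil and 10 MHC class II genes are filled by calls upward, and 18 of 20 cell cycle and 14 of 15 oncofetal genes by calls downward.

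Most of the blood vessel genes listed were called higher. Of 12 pan-endothelial genes 9 were called higher (19.1% of all genes were) and 11 separated upward without overlap (26.6%), with a median of 1.21. The junction genes *Cldn5* and *Cdh5* went from 98.2 CPM (89.6–115) to 406 CPM (329–459) and from 301 CPM (227–365) to 756 CPM (667–800.5). *Kdr*, the main VEGF receptor, went from 122 CPM (84.3–143) to 309.9 CPM (271–324), a log2 fold change of 1.40 with an SE of 0.11 (FDR = 7.34e-08 by edgeR). Of 12 genes of aerocytes and general capillary cells, the capillary cell types of the alveolus, 8 were called higher and 4 were not called. The median was 1.25, and 19.1% of all genes were called higher. *Ednrb* and *Aplnr*, receptors of endothelin and apelin, separated downward without overlap, with log2 fold changes of -0.54 and -0.39 that missed the cutoff. *Gpihbp1*, which carries lipoprotein lipase to the capillary surface, went from 8.42 CPM (6.23–13.4) to 76.3 CPM (67.4–82.0).

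The immune lists differed in how many of their genes rose. Each of the 10 tested B cell, 10 neutrophil and 10 MHC class II genes was called higher (19.1% of all genes were), and none of them overlapped. Their medians were 6.70, 4.34 and 4.53. The neutrophil list held 12 genes, of which *Elane* and *Mpo* were too low to test. A gene was tested at 1 CPM or more in at least 3 libraries. Those under 1 CPM in every embryonic library, such as *Cd79a*, *Itgax* and *Marco*, passed only through postnatal libraries. For such genes a call upward was nearly fixed in advance. *Ighm*, the heavy chain of IgM, went from 2.14 CPM (1.34–3.79) to 66.7 CPM (45.0–91.3). *Cd79a*, a subunit of the B cell receptor, went from 0.221 CPM (0.115–0.436) to 12.5 CPM (8.30–16.1). Neutrophils carry the calprotectin genes. *S100a8* went from 0.463 CPM (0.348–1.13) to 14.05 CPM (11.3–17.3) and *S100a9* from 0.553 CPM (0.334–2.15) to 25.6 CPM (19.8–31.0). *Cd74*, the invariant chain of MHC class II, went from 6.00 CPM (3.46–18.48) to 354 CPM (274–400.3), a log2 fold change of 5.58 with an SE of 0.38 (FDR = 1.78e-08 by edgeR), and its highest embryonic value was that of E15.5 replicate 2, a library with thymus genes. Of 12 macrophage genes 9 were called higher (19.1% of all genes were) and 3 were not (median 2.94). Those called included genes of alveolar macrophages. *Ear2* was at 0.523 CPM (0.118–1.03) before and 44.9 CPM (33.2–62.4) after birth, *Itgax* at 0.242 CPM (0.0484–0.403) before and 30.7 CPM (17.7–33.1) after birth and *Marco* at 0.210 CPM (0.118–0.420) before and 24.3 CPM (9.56–37.3) after birth. The complement gene *C1qb* and the chemokine receptor gene *Cx3cr1*, which macrophages of other tissues also express, overlapped. *C1qb* was at 15.8 CPM (11.03–19.05) before and 18.6 CPM (15.1–27.6) after birth and *Cx3cr1* at 12.3 CPM (10.3–17.4) before and 23.7 CPM (13.9–32.0) after birth. Of 11 tested thymus and T cell genes 7 were called higher (19.1% of all genes were) and 4 were not called. Of the 11, 8 overlapped (6536 of 15994 genes did). The summed level of the list was 0.498 to 46.9 CPM in the embryonic and 11.6 to 395.0 CPM in the postnatal libraries. Each immune gene named here as called was also called without the 3 libraries with thymus genes. Of the other organs, 1 of 8 heart genes was called lower (10.1% of all genes were). Called higher were 4 of 7 skeletal muscle and 3 of 4 liver genes (19.1% of all genes were), and each gene of these lists overlapped. The 5 sex-linked genes overlapped too, and 0 were called (29.2% of all genes were).

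Cell cycle genes fell as a group. Of 20 genes of DNA replication and mitosis 18 were called lower (10.1% of all genes were) and 0 higher, and all 20 separated without overlap (median -1.47). The other 2, *Pcna* and *Rrm2*, missed only the fold cutoff. The mitotic kinase gene *Cdk1* fell from 194 CPM (179–226) to 61.2 CPM (49.1–70.4), a log2 fold change of -1.63 with an SE of 0.09 (FDR = 2.34e-09 by edgeR), with inner changes of -0.22 between the embryonic and -0.28 between the postnatal days. Its partner cyclin *Ccnb1* fell from 164 CPM (129–179.8) to 40.4 CPM (33.4–45.6). The S phase cyclin *Ccna2* fell from 221 CPM (197–234) to 78.5 CPM (63.2–84.6), and the checkpoint kinase *Bub1* from 116 CPM (95.4–122) to 28.2 CPM (24.3–31.7). The promoter windows of *Cdk1* and *Ccnb1* are shown as a description, from RefSeq on GRCm38.p6, each from 250 bases before to 50 after the annotated start. Capitals mark matches of CCAAT and TTTGAA on either strand (ATTGG and TTCAAA where they lie on the other). Both motifs are known from cell cycle promoters, CCAAT as the site of the factor NF-Y and TTTGAA as the cell cycle genes homology region. The windows lie at chr10:69352863-69353162 and chr13:100786437-100786736 on the minus strand and are printed 5′ to 3′ along the gene.
Cdk1: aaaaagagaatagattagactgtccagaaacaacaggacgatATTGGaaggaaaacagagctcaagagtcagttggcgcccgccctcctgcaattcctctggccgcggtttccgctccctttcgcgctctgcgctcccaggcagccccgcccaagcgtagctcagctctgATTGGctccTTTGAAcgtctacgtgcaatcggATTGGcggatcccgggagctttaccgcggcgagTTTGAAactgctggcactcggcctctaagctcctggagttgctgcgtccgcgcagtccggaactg
Ccnb1: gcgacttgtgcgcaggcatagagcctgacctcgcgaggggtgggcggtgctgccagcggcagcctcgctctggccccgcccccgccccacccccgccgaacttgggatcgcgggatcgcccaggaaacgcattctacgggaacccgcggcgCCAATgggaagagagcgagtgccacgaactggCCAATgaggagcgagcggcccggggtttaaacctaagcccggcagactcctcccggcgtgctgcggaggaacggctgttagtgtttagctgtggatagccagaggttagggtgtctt

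The *Cdk1* window held 3 CCAAT and 2 TTTGAA matches and the *Ccnb1* window 2 CCAAT and 0 TTTGAA matches. Of the 20 cell cycle genes listed, *Ccna2*, *Aurkb* and *Mcm4* had no window. Of the 17 cell cycle genes with a window, 17 held CCAAT, beside 38.2% of the 11627 tested genes with one, and 9 held both motifs (52.9%, beside 5.04%). Genes and motifs were both picked from what is known of the cell cycle, so these shares follow largely from the choice. A link between the motifs and the postnatal fall was not tested. Over the separating genes with a window the share with both was 10.3% of 1017 lower and 4.35% of 2024 higher genes. A match of letters is a description and not a bound site.

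Fetal growth genes fell too. Of 15 oncofetal and imprinted growth genes tested, 14 were called lower (median -2.14), beside 10.1% of all genes. *Igf2*, the fetal insulin-like growth factor, fell from 1472 CPM (1249–1708) to 102.2 CPM (93.0–237), a log2 fold change of -3.32 with an SE of 0.25 (FDR = 4.93e-08 by edgeR). *Dlk1*, an imprinted Notch-related protein, fell from 781 CPM (729.8–846) to 99.5 CPM (82.5–131). *Meg3*, an imprinted noncoding RNA, was called with an overlap, at 70.5 CPM (32.5–108) before and 31.2 CPM (12.1–50.1) after birth, and its log2 fold change of -1.15 became -0.32 without E15.5. The remaining gene, *Peg3*, was at 343 CPM (264–372) before and 186 CPM (159–192) after birth, short of the fold cutoff.

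Red cell genes split by developmental type. Of 12 globin and erythroid genes tested 3 were called lower and 6 higher, beside 10.1% and 19.1% of all genes. The embryonic globins *Hbb-y*, *Hba-x* and *Hbb-bh1* fell, while the genes that rose included the adult globins *Hba-a1*, *Hba-a2*, *Hbb-bs* and *Hbb-bt*. *Hbb-y* was at 240.4, 283 and 263 CPM in the E15.5 libraries, at 56.1, 30.8 and 55.5 CPM at E18.5 and at 0.237 CPM (0.148–1.35) postnatally. It fell inside the embryonic side as well (log2 fold change -2.46, FDR = 0.000708 by edgeR). *Hba-a1* was at 970.2 CPM (872–1090.1) before and 2985 CPM (2488–4893) after birth. *Alas2*, the first enzyme of heme synthesis in red cells, was at 31.6 CPM (24.1–41.9) before and 212 CPM (154–334) after birth. The adult globin genes are near-identical pairs, and their single values are uncertain to that extent.

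Matrix genes were divided. Of 12 elastic fibre genes 7 were called higher and 2 lower (median 1.53), beside 19.1% and 10.1% of all genes. The fibre assembly gene *Fbln5* rose from 86.1 CPM (60.8–106) to 623 CPM (586–743) and *Loxl1*, a crosslinking enzyme, from 67.7 CPM (52.2–74.9) to 298 CPM (242–327). The fetal microfibril gene *Fbn2* fell from 361 CPM (148–474) to 35.6 CPM (29.8–42.8). Of 12 collagen chains 4 were called higher and 2 lower (19.1% and 10.1% of all genes were), with a median of 0.37. Of the 12, 6 overlapped (6536 of 15994 genes did). The basement membrane chains *Col4a3* and *Col4a4* rose from 8.25 CPM (6.96–12.2) to 220.2 CPM (189–273) and from 39.6 CPM (26.3–53.2) to 257 CPM (222–326). *Col11a1*, a chain of cartilage, fell from 34.2 CPM (24.6–41.8) to 3.73 CPM (2.103–13.1). The fibrillar chains *Col1a2* and *Col3a1* overlapped, with log2 fold changes of 0.48 and 0.43. Of 12 genes of the lung mesenchyme 1 was called higher and 1 lower (median 0.24), beside 19.1% and 10.1% of all genes. The ligand *Wnt5a* rose from 52.9 CPM (41.7–71.0) to 141 CPM (124–154) and the hedgehog target *Gli1* fell from 64.2 CPM (42.3–90.3) to 20.5 CPM (16.3–26.7), while *Tbx4* and *Pdgfra* overlapped.

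Of 12 fluid and ion transport genes 7 were called higher (19.1% of all genes were), with a median of 2.24. Of the 12, 3 overlapped (6536 of 15994 genes did). The chloride channel gene *Clcn2* separated downward with a log2 fold change of -0.92 that missed the cutoff. The epithelial sodium channel draws fluid out of the airspace. Its subunit *Scnn1a* rose from 4.74 CPM (3.16–11.9) to 125 CPM (98.7–159.7), *Scnn1b* from 5.27 CPM (3.94–6.43) to 51.2 CPM (46.5–67.5) and *Scnn1g* from 11.9 CPM (9.95–20.8) to 139.7 CPM (129–168). *Cftr*, another chloride channel gene, overlapped, at 22.9 CPM (12.9–27.2) before and 20.7 CPM (16.2–24.7) after birth. Of 15 antioxidant and xenobiotic enzymes 12 were called higher (19.1% of all genes were), with a median of 3.74. Among them, extracellular superoxide dismutase *Sod3* rose from 0.795 CPM (0.662–1.03) to 41.01 CPM (28.7–66.4) and the monooxygenase *Fmo1* from 9.39 CPM (5.92–14.8) to 121 CPM (109–138). Of 10 glucocorticoid response genes 4 were called higher (19.1% of all genes were) and 6 were not called (median 0.80). Among the 6 was *Fkbp5*, a chaperone of the glucocorticoid receptor, which separated downward with a log2 fold change of -0.82. *Sgk1*, a kinase that activates the sodium channel, rose from 24.3 CPM (14.2–27.5) to 169 CPM (137–204). *Per1*, also a clock gene, overlapped, at 45.7 CPM (37.9–89.5) before and 52.2 CPM (26.1–93.3) after birth, and fell by 1.55 on the log2 scale between the postnatal days.

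Few of the splicing events tested were called. Of 661162 annotated events 331318 had enough reads to test, and 14034 of these had a mean PSI between 5% and 95%. The minimum value (MV) is the size of PSI difference that is exceeded with a probability of 0.95, given the reads of each library, and events were called at an MV of at least 10%. At this threshold 50 events (0.0151% of those tested) had a higher and 35 (0.0106%) a lower PSI postnatally, in 70 genes. All 85 lay among the 14034 events of intermediate PSI. An event with a mean PSI under 5% or over 95% could hardly reach the threshold, and most events tested were of this kind. The higher events were 41 exons, 8 retained introns and 1 alternative 3′ splice site. The lower ones were 25 exons, 9 introns and 1 site, and the 2 sites are the complementary choices of 1 event in *Epb41*. Every called event separated the sides without overlap, by at least 8.67 percentage points, and was past 0.05 in the limma fit of logit PSI (largest adjusted p = 0.0276). Both outcomes follow largely from the MV rule on the same reads and are not separate support. Among the 14034 events of intermediate PSI, 396 (2.82%) were higher and 223 (1.59%) lower without overlap whatever their size, and 564 (4.02%) passed limma. The 534 events that separated without an MV call had a median difference of 12.3 points in size, beside 29.8 points for the called ones. The called events rested on a median of 291.5 reads per library, and the lowest was 18 reads, for an intron of *Hps3*.

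The called events were also compared inside the sides. Of the 85 events 0 had an MV of at least 10% between the embryonic or between the postnatal days, and the MV was 0 in both for 78 of them. The largest inner values, 6% and 3%, belonged to an exon of *Senp6*, a SUMO protease gene, whose mean PSI was 31.4% and 47.5% on the embryonic and 64.1% and 76.2% on the postnatal days. The MV rule between the sides disfavours events that move inside a side, and an MV of 0 with 3 against 3 libraries does not show that an event was still. An exon of *Aspn* averaged 26.7% at E15.5 and 46.5% at E18.5, with an inner MV of 2%, and another *Aspn* exon had an inner MV of 4%. An exon of *Arhgap12*, named after its values were seen, averaged 24.6% and 39.2% on the embryonic and 90.4% and 70.5% on the postnatal days, with inner MVs of 0. Among all tested events 17 (0.00513%) and 10 (0.00302%) reached 10% in the inner comparisons, which used 3 against 3 libraries. Of the 70 genes with a called event 18 (25.7%) were also called by the expression test, and 29.2% of all genes tested were.

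An exon of *Col13a1*, a transmembrane collagen, had the widest gap upward. It went from 32.2% (24.7–39.5) to 86.0% (83.8–97.5), a difference of 55.9 percentage points with an MV of 42% (limma adjusted p = 0.000401), while the gene's expression changed by 0.25 on the log2 scale. Inside the embryonic side this exon went the other way, from a mean of 38.5% at E15.5 to 25.8% at E18.5 (signed inner MV -5%). An exon of *Npnt*, the basement membrane protein nephronectin, went from 1.76% (0.860–2.72) to 48.8% (42.7–51.2), a difference of 46.6 percentage points with an MV of 39% (limma adjusted p = 1.93e-06). It was skipped almost always before birth and often included after. The 7 called exons of *Aspn*, a small leucine-rich matrix protein, shifted together, from 11.4% to 56.5% over the embryonic to 78.8% to 95.5% over the postnatal libraries. Their PSI differences were 55.8 to 62.6 points. An exon of *Prickle1*, a planar polarity protein, went from 17.2% (14.3–25.3) to 72.4% (62.6–80.6). An exon of *Palm*, a membrane-bound phosphoprotein, went from 23.7% (18.9–30.9) to 78.2% (65.0–83.6).

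**Figure D4:**
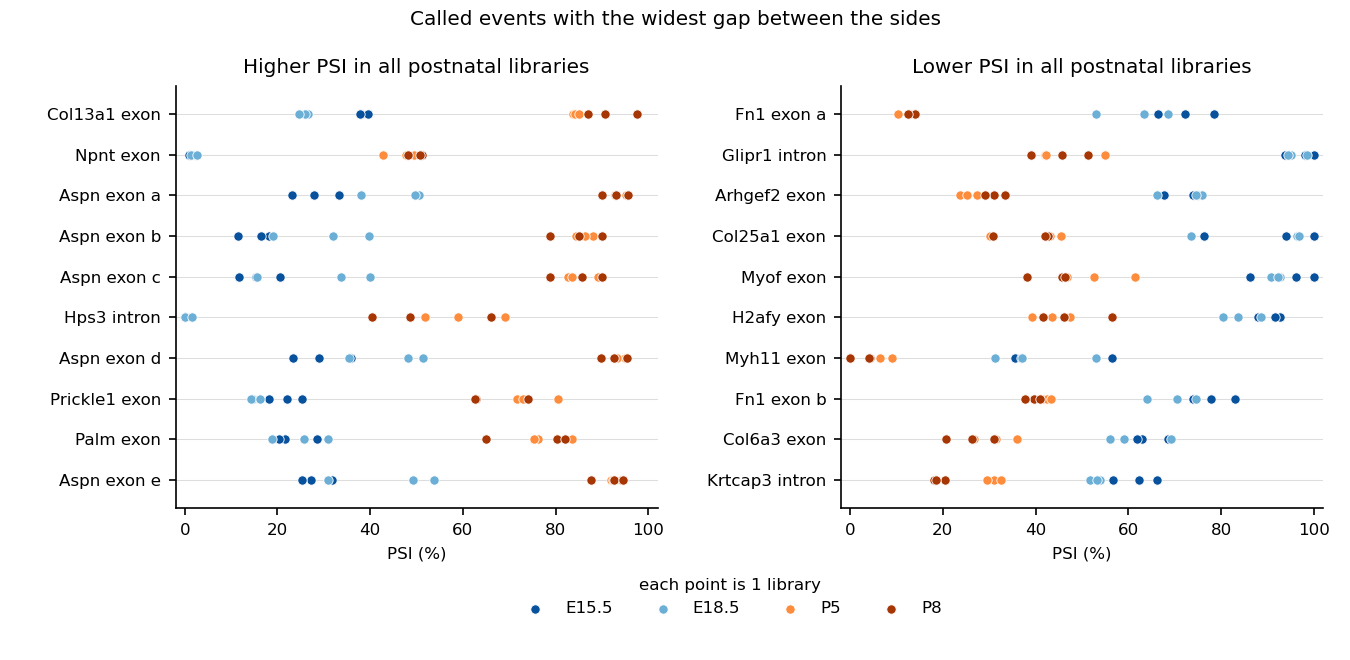
PSI of the 10 called events with the widest gap in each direction, in percent on the x axis, with 1 point per library coloured by time-point. The embryonic (blue) and postnatal (orange and brown) points of every row stand apart, and small letters tell events of the same gene apart.

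In the other direction, an exon of *Fn1*, the gene of fibronectin, went from 67.5% (52.9–78.4) to 13.2% (10.4–14.04), a difference of -54.1 percentage points with an MV of 38% (limma adjusted p = 2.33e-05), and another *Fn1* exon from 74.3% (64.0–83.1) to 41.3% (37.8–43.4). The expression of *Fn1* meanwhile rose by 1.87 on the log2 scale. An exon of *Arhgef2*, a microtubule-bound activator of RhoA, fell from 74.3% (66.3–75.9) to 28.2% (23.7–33.3). An exon of *Myof*, the membrane repair protein myoferlin, fell from 92.6% (86.3–100) to 46.6% (38.05–61.5). *Myh11*, the smooth muscle myosin heavy chain, has an exon that fell from 37.0% (31.2–56.4) to 4.22% (0–8.93). Collagen genes were also among the lower events. An exon of *Col25a1* fell from 95.2% (73.6–100) to 42.4% (30.2–45.5) and an exon of *Col6a3* from 62.4% (56.0–69.1) to 28.9% (20.7–36.02). In *H2afy*, which encodes the histone variant macroH2A, an exon fell from 88.3% (80.4–92.8) to 44.9% (39.2–56.5) while another rose from 10.6% (8.08–22.2) to 59.2% (45.6–65.8).

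Further called events, named after their values were seen, lay in splicing regulators and cytoskeletal genes. *Mbnl1* and *Mbnl2* encode muscleblind splicing factors, and 2 exons fell in each. In *Mbnl1* they went from 38.3% (33.8–55.6) to 9.44% (5.85–15.4) and from 69.5% (61.3–80.8) to 41.7% (34.3–44.1), with a gene log2 fold change of 0.45. In *Mbnl2* they went from 29.8% (27.0–38.95) to 8.82% (6.12–10.99) and from 62.1% (59.6–71.7) to 45.8% (38.6–47.8), with a gene log2 fold change of 0.84. The latter exon dropped to an MV of 9% without E15.5, without P8 and without some single libraries. In *App*, the amyloid precursor protein gene, 1 exon fell from 71.1% (63.5–75.1) to 43.4% (41.8–45.0) and 1 rose from 23.8% (22.6–28.2) to 42.5% (41–44.1). An exon of *Tpm1*, a tropomyosin, rose from 4.58% (2.17–5.69) to 19.97% (15.7–24.1). It was at an MV of 9% in the same cases and also without P5 replicate 1 and without P8 replicate 3. An exon of *Actn1*, an actinin, rose from 25.6% (20.4–32.7) to 49.4% (42.5–56.9). An exon of *Macf1*, a linker of microtubules and actin, fell from 74.7% (51.9–78.3) to 30.6% (28.2–35.7). *Plod2*, a collagen lysyl hydroxylase, has an exon that rose from 47.9% (37.99–50.5) to 82.0% (75.8–89.5), while its expression changed by -0.91 on the log2 scale.

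Several of the widest events lay in genes that share their position with a gene on the other strand. *Aspn* (chr13:49544443-49567565, plus strand) lies inside *Cenpp*. *Cenpp* fell from 12.6 ± 0.741 to 5.04 ± 0.791 CPM (SD, n = 6), while *Aspn* rose by 2.97 on the log2 scale. A retained intron of *Hps3* went from 0% (0–1.54) to 55.4% (40.4–69.0). *Hps3* overlaps *Cp*, the gene of ceruloplasmin, over chr3:19995945-20009145, and *Cp* rose from 2.03 ± 0.706 to 117 ± 5.27 CPM. An intron of *Polr2b* went from 1.30% (0.450–3.73) to 33.8% (32.5–39.99). *Polr2b* (chr5:77310147-77349324, plus strand) overlaps *Igfbp7* (log2 fold change 4.16) only over chr5:77349240-77349324, at its 3′ end. An intron of *Glipr1* went from 96.5% (93.8–100) to 43.9% (39.05–54.9) in a gene overlapping *Krr1* (-0.68). Of the 70 genes with a called event 23 overlap another tested gene in the vM21 annotation, and 8 overlap a called gene on the other strand. The events were used without coordinates, and the part of reads from the other strand in these PSI values was not tested.

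An exon of *Vegfa* (chr17:46016993-46032369, minus strand), the vascular endothelial growth factor gene, was among the called events. Exon 6, absent from the shorter isoforms, codes for basic residues that hold the protein in the matrix. It is exon 6 of transcript Vegfa-207 at chr17:46022277-46022348 on the minus strand, with 72 bases or 24 codons, all of them coding. It is printed 5′ to 3′ because its inclusion is the result, in capitals between 30 bases of exon 5 and 30 of exon 7 in lower case.
Vegfa exon 6: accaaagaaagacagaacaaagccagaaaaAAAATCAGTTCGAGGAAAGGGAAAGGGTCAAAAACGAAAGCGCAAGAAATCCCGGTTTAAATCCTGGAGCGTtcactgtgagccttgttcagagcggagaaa

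The event was matched to this exon by the study's naming of it and not by coordinates. Its PSI was 17.5, 17.5 and 6.97% in the E15.5 and 10.96, 8.77 and 8.6% in the E18.5 libraries. In the P5 libraries it was 48.6, 42.0 and 46.3% and in the P8 libraries 49.97, 47.0 and 47.1%, a difference of 35.1 percentage points with an MV of 24% (limma adjusted p = 0.000326). The highest embryonic value was 24.5 points under the lowest postnatal one, and the MV was 0 inside both sides. At least 179 reads covered the event in every library. Expression of the gene moved in the same direction, from 105 CPM (95.9–135) to 319 CPM (269.5–428), a log2 fold change of 1.68 with an SE of 0.11 (FDR = 9.31e-09 by edgeR).

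General splicing factors, the SR and hnRNP proteins, act in the splicing of most transcripts. Of 20 such genes 8 were called lower (10.1% of all genes were), 0 higher and 12 not called. Of the 20, 18 separated without overlap, each of them downward (32.5% of all genes did), with a median of -0.87. The SR protein gene *Srsf7* fell from 313 CPM (253–342) to 101 CPM (93.8–113), and *Hnrnpd* fell from 268 CPM (243–286) to 106 CPM (103–121). *Hnrnpc* fell from 392 CPM (377–405) to 184 CPM (172–194), with a log2 fold change of -1.01 that was -0.98, short of the cutoff, with DESeq2. *Srsf5* overlapped, at 197 CPM (147–209) before and 169.9 CPM (144–217) after birth. The splicing repressor gene *Hnrnpa1* was at 988 ± 8.80 and 874 ± 62.0 CPM on the embryonic days and at 341 ± 23.5 and 309 ± 13.9 CPM on the postnatal days (SD, n = 3), a log2 fold change of -1.44 with an SE of 0.07 (FDR = 8.27e-10 by edgeR). Of 25 tested RNA-binding factors of restricted expression 5 were called higher and 5 lower (median -0.01), beside 19.1% and 10.1% of all genes. *Cpeb4*, a regulator of polyadenylation, was at 14.4 ± 3.29 and 24.1 ± 2.9998 CPM on the embryonic days and at 56.4 ± 1.75 and 54.6 ± 5.21 CPM on the postnatal days, a log2 fold change of 1.60 with an SE of 0.18 (FDR = 1.76e-06 by edgeR). *Elavl2*, an RNA stabilizer known from neurons, was at 3.38 ± 0.575 and 2.03 ± 0.586 CPM on the embryonic days and at 0.946 ± 0.272 and 1.08 ± 0.150 CPM on the postnatal days, a log2 fold change of -1.34 with an SE of 0.24 (FDR = 0.000181 by edgeR). Its sides were 0.10 log2 units apart, and without E15.5 its log2 fold change was -0.93, short of the cutoff. *Celf4* fell from 7.10 CPM (5.84–8.09) to 1.23 CPM (0.986–2.03) and the epithelial splicing factor *Esrp1* from 66.6 CPM (53.5–69.8) to 29.5 CPM (25.7–33.8). The call of *Esrp1* was lost without E18.5 (-0.94) and without P5 (-0.91).

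**Figure D5:**
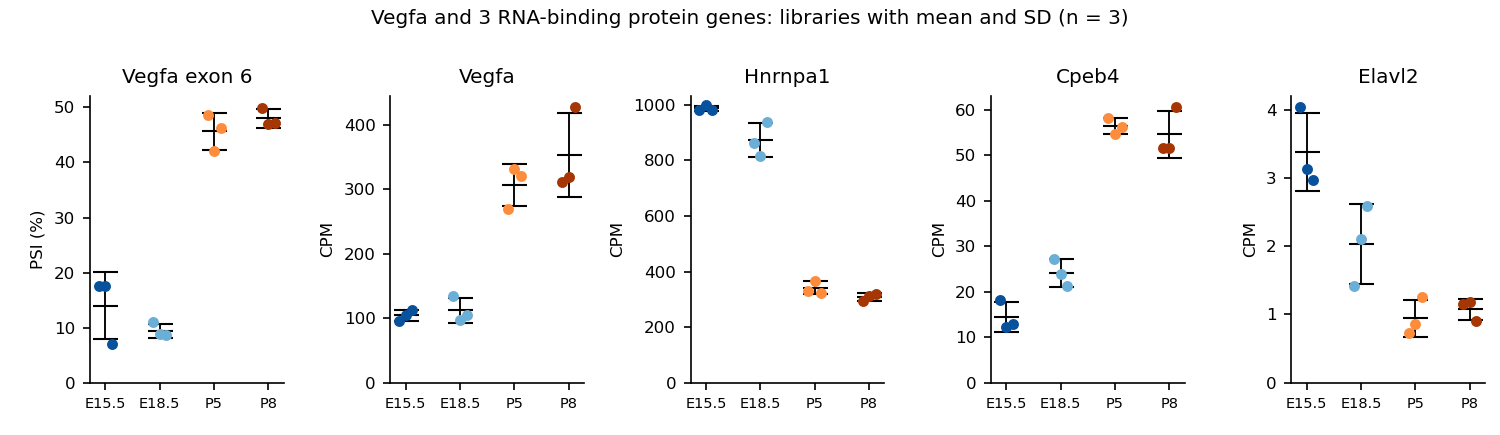
PSI of *Vegfa* exon 6 (in percent) and CPM of *Vegfa*, *Hnrnpa1*, *Cpeb4* and *Elavl2* by time-point, with 1 point per library and the mean and SD of 3 replicates as bars. Exon inclusion reaches 17.5% at most in the embryonic libraries and is at least 42.0% in the postnatal ones.

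Whole time-points were left out as a further check. Of the 3060 higher genes 2498 (81.6%) were called with each of the 4 time-points left out in turn, and of the 1613 lower genes 1196 (74.1%). With counts summed per time-point, 2 against 2, 2878 (94.1%) and 1529 (94.8%) of them were called. That fit reused the same reads of the same litters and shared its estimate of the spread across genes, so it is not separate support. Without E18.5, 82 events were called higher and 60 lower, and without the 5 libraries with genes of other organs 79 and 43.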

How the data were processed

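Whole lungs of 12 wild-type mice were sequenced as messenger RNA. The authors mapped reads to mm10 with TopHat2 2.1.1 and Bowtie2 2.3.4 and counted them per gene with HTSeq 0.10.0, and deposited the counts of 16152 expressed genes. The authors divided the counts by all mapped reads to give the deposited CPM values of 51825 genes, and 100.0% of these came out as whole reads (tolerance 0.01). The deposited PSI values are the percent of inclusion reads per event from VAST-TOOLS, with read numbers beside them, and replicates were not pooled.

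Counts were tested with edgeR 4.0.16 (R 4.3.3) after TMM normalization, for genes of at least 1 CPM in at least 3 libraries, with 1 term for the side. Inner comparisons came from 1 fit with 4 time-points. Overlap and gaps were read from CPM, with 1 added before log2. The MV followed the principle of VAST-TOOLS: Beta distributions of each library's reads over 36 pairs of libraries, on a grid of 400 bins, with PSI known in every library and at most 2 libraries under 10 reads. Logit PSI (0.5 reads added) was tested with limma 3.58.1. P-values were adjusted by Benjamini-Hochberg. The scripts of each test were checked on simulated data.

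Named genes were, among those called without overlap and of at least 10 CPM on average, the 12 with the widest gap each way and the 6 widest flat inside the sides each way. At any level, up to 4 members of each list with the widest gap and up to 2 that overlapped were named, and 4 genes at the edge of the overlap rule, 2 on each side of it. Named events were the 10 widest called each way. *Vegfa*, *Hnrnpa1*, *Cpeb4* and *Elavl2* were named in any case, and *Etv5*, *Peg3*, *Pcna*, *Rrm2*, *Ednrb*, *Aplnr*, *Clcn2*, *Fkbp5* and the further events were named after their values were seen. The 27 lists and the comparison were chosen with earlier results of these data known. No 2 libraries were copies (chi-square per gene 13.0 to 75.7 between replicates). Coordinates are those of Gencode vM21 on mm10, while the authors counted with vM14. Alternatives were DESeq2 1.42.0, other normalizations, filters and thresholds, and leaving out libraries and time-points.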

Additional observations from a re-analysis of the deposited data

Results flagged for a closer look

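In 23 of 348 groups of 6 libraries checked, 1 library stood far from the other 5, by Dixon's criterion at its 95% level, which chance alone gives in about 1 of 20 groups. Of these, 11 were in E15.5 replicate 2, the highest embryonic library each time. It held the thymus and T cell genes *Rag1* at 11.97, *Cd3d* at 3.18 and *Cd8b1* at 0.197 CPM. It also held the antigen presentation genes *Cd74* at 18.48, *H2-Aa* at 5.11 and *H2-Eb1* at 3.97 CPM, and the skeletal muscle genes *Acta1* at 18.1 and *Mylpf* at 6.72 CPM. The others there were *Cx3cr1* at 17.4, *Bpifa1* at 1.44 and *Ifitm1* at 12.5 CPM.

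Among the postnatal libraries, P8 replicate 1 was highest for *Acta1* at 293, *Mylpf* at 90.7 and *Hba-x* at 0.390 CPM, and P8 replicate 2 for the heart gene *Myh6* at 86.3 and the liver genes *Alb* at 70.7 and *Afp* at 16.3 CPM. P8 replicate 3 was highest for *Adcy8* at 44.7 CPM, P5 replicate 1 was highest for *Hba-a1* at 4893 CPM, and P5 replicate 2 was lowest for *Vwa2* at 0.661 CPM. E18.5 replicate 1 was the highest embryonic library for *Scnn1g* at 20.8 and *Sntn* at 0.431 CPM and the lowest for *Srsf4* at 20.998 CPM.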

How the results depend on the processing

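Of 4131 values of the 153 named genes under alternatives, 4024 kept their direction and side of the cutoffs, 64 lost and 36 gained a call and 7 changed sign. *Krt15* became -0.59 without P8, -0.40 without the 3 libraries with thymus genes and -0.27 without the 5 with genes of other organs. *Rag1* became -1.60 without P8, *Myh6* 2.27 without E15.5 and 2.02 without the 5 libraries, and *Mylpf* -0.60 without the 5 libraries. Leaving out these libraries was chosen after seeing the data, as were the recovered reads. Of 1615 values of the 85 called events, 1516 stayed past the MV threshold and 99, in 22 events, fell under it, with no change of sign. Genes called higher were 4968 with reads recovered from CPM, where 25809 genes were tested. With the FDR alone 6007 were higher and 6199 lower. Of the 10621 genes with a mean of at least 10 CPM, 2594 were higher and 4113 lower without overlap. Leaving out 1 library gave 2997 to 3103 genes higher and 1556 to 1667 lower, 4301 to 4435 and 5218 to 5544 without overlap, 51 to 62 events higher and 30 to 38 lower, and 437 to 485 and 253 to 290 events without overlap. Events called higher and lower were 110 and 66 with the MV threshold lowered to 5%, 18 and 9 with it raised to 20%, 267 and 139 by limma with 10 points, and 82 and 60 without E18.5, and 79 were higher without the 5 libraries. Events without overlap were 125 and 72 with a gap of at least 5 points, and 870 and 512 without E15.5, 813 and 720 without E18.5, 708 and 458 without P5 and 760 and 490 without P8, where fewer libraries must not overlap.

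The replicate block gave 3066 genes higher and 1608 lower (3046 and 1602 shared with the unblocked fit), and 53 and 36 events with matched replicate numbers. The numbers did not pair the libraries: of 18 same-number pairs 3 had a correlation of deviations over 0.1 (range -0.343 to 0.301), and the own number correlated best in 8 of 36 cases. Normalization by library size alone moved the median log2 fold change to -0.08 from -0.01, and 61.5% to 69.7% of calls were higher over the alternatives, beside 65.5%.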
